A study of Papio hamadryas with 72 samples.

Results

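The genes described here encode 10 proteins that the liver secretes into the blood: HAMP, CRP, SERPINA3, ORM1, SAA4, HP, LBP, FGA, FGB and FGG. They were chosen by name as acute phase genes, most of which answer to inflammation while SAA4 is largely constitutive, and found by symbol in the annotation of the array probes, which names 16828 genes, with the brightest detected probe standing for each gene. All 10 passed the detection filter in liver, among 8685 genes kept there, against 3 of them in omental adipose tissue (HAMP, SAA4 and SERPINA3) and 1 in skeletal muscle (SAA4). The study followed 12 juvenile baboons (Papio hamadryas) of about 4.5 years. Control animals (CON, n = 6) were born to mothers that ate freely, and MUN animals (n = 6) to mothers on calorie-reduced feed during pregnancy and lactation, which left the offspring growth-restricted at birth. Each group held 3 females and 3 males. Liver, omental fat and vastus lateralis muscle were biopsied on chow and again in the same animals after 7 weeks of free access to HFCS, a high-fat, high-carbohydrate Western style diet with a high fructose drink, which gave 72 arrays. No animals were kept on chow for the second biopsy, so that a diet effect cannot be told apart from age, season or the first biopsy. A replicate number below names the same animal on both diets and in all 3 tissues.

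The acute phase response is the change in hepatocyte secretion that follows infection, tissue injury or other inflammation. Macrophages, Kupffer cells among them, release interleukin 6 and interleukin 1, which act on hepatocytes through JAK and STAT3 signalling, NF-kappaB and the C/EBP factors, and proteins that rise in plasma are called positive acute phase proteins while albumin, transferrin and transthyretin fall. HAMP encodes hepcidin, which is induced by interleukin 6 as well as by iron stores and BMP signalling, and it blocks iron export from macrophages and gut cells.

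The arrays were Illumina HumanHT-12 beadchips, whose probes were designed on human transcripts, so that a baboon sequence difference can weaken a probe, and no level was set against another probe's level. HAMP, CRP, SERPINA3, ORM1, SAA4, HP and LBP had 1 probe each. FGA had 4 probes with 3 kept in liver, FGB 2 with 1 kept and FGG 3 with 2 kept. The FGA probes that were not used differed widely in brightness, with median deposited signals of 5746, 404 and 106.7 against 17916 for the probe used. Close relatives can share a probe's signal, so that HP with HPR, ORM1 with ORM2, and SAA4 with SAA1 and SAA2 are uncertain as single genes. Levels below are log2 signals after quantile normalization within a tissue, which gives the brightest probe of every liver array the same value of 14.41. HAMP on CON replicate 5 on chow, CRP on MUN replicate 2 on HFCS and ORM1 on CON replicate 3 on HFCS stood at that ceiling.

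In liver 3 of the 24 arrays stood apart, all from MUN males: replicates 4 and 6 on chow and replicate 4 on HFCS. Their median correlations with the other liver arrays were 0.522, 0.684 and 0.081, while the other 21 lay between 0.964 and 0.977. They detected 4741 to 10136 probes, against 10870 to 13453 on the rest, and the 95th percentile of their deposited signals was 106.7 to 151.1 against 299.1 to 604.1. On the other 21 liver arrays every member but LBP read at least 4661.3, and LBP had a median of 263.9. Most members were near the bottom of the signal range on the weak arrays. HAMP read 115.2, 94.4 and 80.0 there, on MUN replicate 4 on chow, replicate 6 on chow and replicate 4 on HFCS, against 6004.3 to 28252 on the other 21 liver arrays. SERPINA3 read 94.5, 93.9 and 115.3 in the same order, against 4746.1 to 22872. FGA read 103.1 and 119.3 on the chow arrays and less than that on the HFCS array, against 12098 to 27500. These 3 genes, and ORM1 at no more than 206.8, lacked a strong signal on every weak array, whereas other members kept theirs on some. SAA4 read 3724.5 on replicate 4 on chow and 112.3 and 98.7 on the other weak arrays. CRP, FGB and FGG were bright only on replicate 6 on chow, with 6168.6, 3914.2 and 7444.3. HP stayed bright on both weak chow arrays, at 3774.6 and 4150.5, and read 106.7 on the HFCS array. Of the 10 genes, 2, 4 and 0 exceeded a deposited signal of 1000 on the weak arrays. Normalization turns such signals into ranks, and FGG at a signal of 110.4 became a log2 signal of 9.49. Differences of the 10 genes between MUN and CON are therefore given with all 24 liver arrays and with the 21 others.

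**Figure D1:**
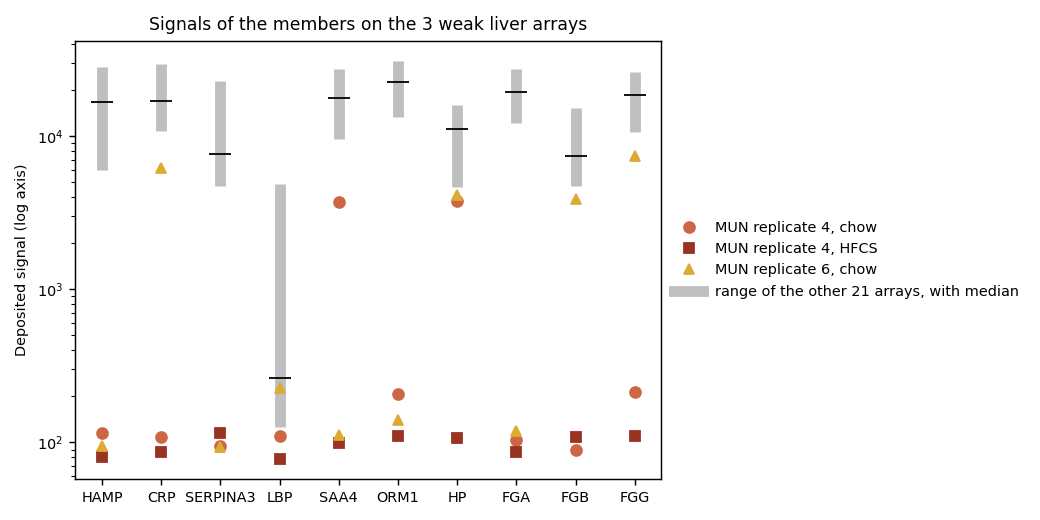
Deposited signals (log axis) of the 10 acute phase genes on the 3 weak liver arrays of MUN males, over the range and median of the other 21 liver arrays in grey. HAMP, SERPINA3 and FGA lay far below the grey range on all 3, HP was at 3774.6 and 4150.5 on the 2 weak chow arrays, and LBP, with a grey range that starts at 125.5, was inside it on replicate 6 on chow.

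The labelled tissue was checked with hepatocyte markers, all 8 of which were kept in liver. On CON arrays their mean log2 signal lay between 11.62 and 11.99, on MUN arrays it reached 8.94 on chow and 8.37 on HFCS at the lowest, and without the weak arrays all groups lay between 11.94 and 12.43.

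No acute phase gene passed the test in any comparison of MUN with CON or of HFCS with chow. The test was limma's moderated fit of the 4 group means to all genes kept in a tissue, and calls needed a fold of at least 1.2 with an adjusted p below 0.05. Over 2952 tests of these genes, with every processing alternative counted, the lowest adjusted p was 0.289. The background was as empty, since 0 of 8685 genes (0%) were called in each of the 5 liver comparisons with all arrays and 0 of 8577 (0%) in each without the weak arrays. Judged by an unadjusted p under 0.05, MUN against CON gave 342 genes (3.94%) on chow and 224 (2.58%) on HFCS with all arrays, and 332 (3.87%) and 461 (5.37%) without the weak ones. Of the 10 members, 1 was under that unadjusted limit on chow with all arrays, 1 on chow without the weak arrays and 1 on HFCS without them. The comparisons of HFCS with chow gave 54 genes (0.622%) in CON and 849 (9.78%) in MUN, or 287 (3.35%) and 286 (3.33%) without the weak arrays, and the difference of the 2 responses gave 288 (3.32%) or 237 (2.76%). No member was among these.

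**Figure D2:**
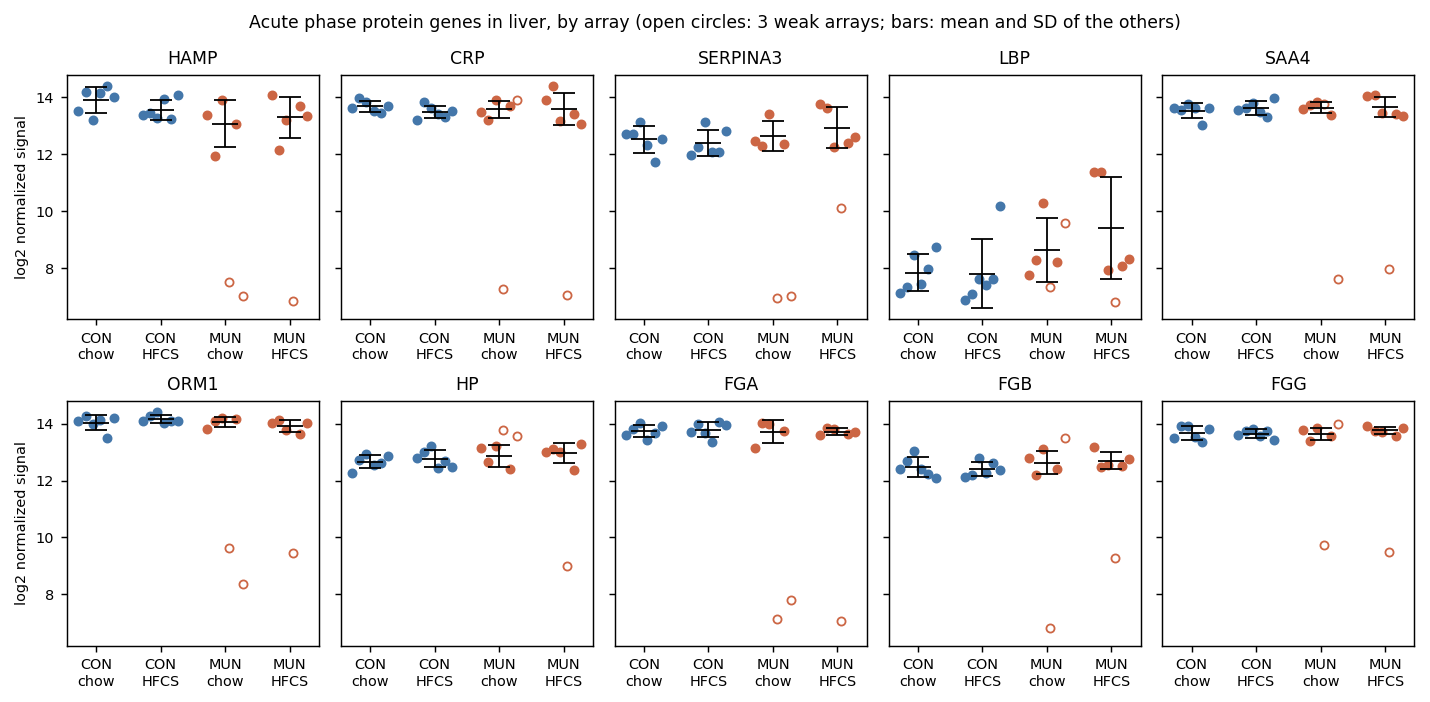
Log2 signal of each acute phase gene on every liver array (same vertical axis in all panels), by maternal group and diet. Filled points are the 21 arrays that correlate well, with their mean and SD as bars, and open circles are the 3 weak MUN arrays. The filled points overlap between groups in every panel, and many open circles, those of HAMP at 6.86 to 7.51 among them, lie far below.

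HAMP had the largest MUN difference on chow among the 10 genes with all arrays, and the weak arrays made most of its size. In CON livers on chow the log2 signal ran from 13.2 through a median of 14.09 to 14.41. In MUN livers on chow it was 13.39, 11.94, 13.89 and 13.07 in replicates 1, 2, 3 and 5, and 7.51 and 7.03 on the weak arrays of replicates 4 and 6. MUN replicate 2 was below every CON animal and the other 3 of these 4 were within or just under the CON range, so that the groups overlapped. The MUN minus CON difference was −2.77 (SE 1.14, adjusted p = 0.964 by limma), a 6.83-fold lower level. Without the weak arrays it was −0.76 (SE 0.33, adjusted p = 1), a 1.7-fold lower level, and HAMP was the member under the unadjusted limit in both. Leaving out MUN replicate 2 as well gave −0.38 (SE 0.23), which was not under it. Over all animals left out in turn beside the weak arrays the HAMP difference stayed between −1.03 and −0.38. With sex as a term, since the 4 remaining MUN chow arrays came from 3 females and 1 male, it was −0.68 (SE 0.32).

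On HFCS hepcidin mRNA in CON livers ran from 13.24 through 13.43 to 14.07. MUN livers read 14.08, 12.16, 13.21, 13.71 and 13.35 in replicates 1, 2, 3, 5 and 6, and 6.86 on the weak array of replicate 4. MUN replicate 2 was again the lowest of the well-correlated arrays, and MUN replicate 1 matched the top of the CON range. HAMP differed between MUN and CON by −1.34 (SE 1.14) with all arrays, by −0.26 (SE 0.31) without the weak ones and by 0.02 (SE 0.21) without MUN replicate 2 as well. Over all animals left out in turn beside the weak arrays that difference ran from −0.44 to 0.02. Within animals HAMP was lower on HFCS in 4 of 6 CON animals, with changes of −1.17 to 0.09, and higher in 3 of the 4 MUN animals without a weak array, with changes of −0.68 to 0.69. The difference of the HFCS responses for HAMP was 1.44 (SE 1.62) with all arrays, and 0.50 (SE 0.45) without the weak ones.

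LBP, which presents bacterial lipopolysaccharide to CD14, had, once the weak arrays were left out, the widest spread within groups among the 10 genes and the largest MUN difference on HFCS. With all arrays its SD within groups was 1.31, below those of FGA (2.13) and HAMP (2.07) among others. On the 21 other liver arrays its deposited signals started at 125.5 with a median of 263.9, and the lower values were near the detection limit. The LBP fold and the small LBP changes given below are therefore uncertain. On chow the CON livers ran from 7.11 through 7.71 to 8.73, and MUN livers read 7.74, 8.28, 10.28 and 8.2 in replicates 1, 2, 3 and 5, with 7.35 and 9.6 on the weak arrays. On HFCS the CON livers ran from 6.88 through 7.5 to 10.19, the highest being replicate 6. MUN livers on HFCS read 11.39, 11.36, 7.92, 8.08 and 8.31 in replicates 1, 2, 3, 5 and 6, and 6.81 on the weak array. MUN replicates 1 and 2 were above every CON animal, and the other MUN values off the weak array were inside the CON range. On HFCS the MUN minus CON difference was 1.18 (SE 0.73, adjusted p = 0.768 by limma) with all arrays. Without the weak arrays it was 1.75 (SE 0.74, adjusted p = 0.887), a 3.37-fold higher level, and under the unadjusted limit. Leaving out MUN replicate 2 as well gave 1.22 (SE 0.75), which was not under it, and over all animals left out in turn beside the weak arrays the difference stayed between 1.22 and 2.28. On chow it was 0.74 (SE 0.73) with all arrays and 0.86 (SE 0.79) without the weak ones.

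The high LBP level belonged to different MUN animals on the 2 diets. Between chow and HFCS it moved by 3.65 in replicate 1, 3.08 in replicate 2, −2.36 in replicate 3 and −0.12 in replicate 5. In CON animals it was lower on HFCS in 5 of 6, with changes of −0.83 to −0.06, and 1.46 higher in replicate 6. The mean change in MUN was 0.40 (SE 0.73) with all arrays and 0.85 (SE 0.82) without the weak ones, and in CON it was −0.04 and −0.05. SAA1, the inducible serum amyloid A gene, was looked at because of these animals after its values were seen. It moved by 3.77 and 4.89 in MUN replicates 1 and 2, to log2 signals of 12.63 and 13.73, and by −2.22 and −1.64 in replicates 3 and 5. In CON livers SAA1 ran from 8.25 through 10.49 to 11.26 on chow and from 8.23 through 9.18 to 11.42 on HFCS, and was lower on HFCS in 5 of 6 animals. MUN replicates 1 and 2 were thus above every CON animal for both genes on HFCS.

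SERPINA3, which encodes alpha-1-antichymotrypsin, an inhibitor of neutrophil cathepsin G, was also highest on HFCS in MUN replicates 1 and 2. In CON livers it ran from 11.72 through 12.62 to 13.12 on chow and from 11.99 through 12.18 to 13.15 on HFCS. MUN livers on chow read 12.45, 12.3, 13.43 and 12.35 in replicates 1, 2, 3 and 5, with 6.94 and 7.02 on the weak arrays. On HFCS they read 13.77, 13.64, 12.24, 12.39 and 12.6 in replicates 1, 2, 3, 5 and 6, with 10.12 on the weak array. Replicate 3 on chow and replicates 1 and 2 on HFCS were above every CON animal, and the other MUN values off the weak arrays were inside the CON range. Its difference between MUN and CON on chow turned from −1.77 (SE 0.91, adjusted p = 0.964) with all arrays to 0.11 (SE 0.33, adjusted p = 1) without the weak ones. On HFCS it was 0.07 (SE 0.91) and 0.53 (SE 0.31, adjusted p = 0.926). The change from chow to HFCS in MUN was 1.71 (SE 0.91, adjusted p = 0.549) with all arrays, where both weak pairs moved up by 3.18 and 5.58, and 0.29 (SE 0.34) without them.

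SAA4, the constitutive serum amyloid A of high density lipoprotein, moved over a narrower range. CON livers ran from 13.04 through 13.61 to 13.75 on chow and from 13.31 through 13.59 to 13.99 on HFCS. MUN livers read 13.6, 13.74, 13.84 and 13.37 on chow in replicates 1, 2, 3 and 5, and 14.04, 14.07, 13.46, 13.42 and 13.33 on HFCS in replicates 1, 2, 3, 5 and 6. Replicates 1 and 2 were again the highest on HFCS, while the weak array of replicate 4 read 13.77 on chow and 7.96 on HFCS and that of replicate 6 read 7.61 on chow. SAA4 differed between MUN and CON by −0.88 (SE 0.95) on chow and −0.91 (SE 0.95) on HFCS with all arrays, and by 0.10 and 0.02 without the weak ones.

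CRP, the pentraxin that opsonizes bacteria and damaged cells, differed little between the groups once the weak arrays were left out. CON livers ran from 13.45 through 13.66 to 13.97 on chow and from 13.21 through 13.47 to 13.82 on HFCS. The level was lower on HFCS in 6 of 6 CON animals, by 0.08 to 0.43, although the mean change of −0.19 (SE 0.16, adjusted p = 1) did not pass the test. That test has no term for the animal, so its SE does not describe the changes within animals. The share of all genes that were lower in every CON animal was not counted. MUN livers read 13.5, 13.2, 13.9 and 13.71 on chow in replicates 1, 2, 3 and 5, and 13.9, 14.41, 13.17, 13.43 and 13.07 on HFCS in replicates 1, 2, 3, 5 and 6. CRP was higher on HFCS in MUN replicates 1 and 2 and lower in replicates 3 and 5. Between MUN and CON the CRP differences were −1.11 on chow and −0.98 on HFCS with all arrays, and −0.10 (SE 0.18) and 0.06 without the weak ones.

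**Figure D3:**
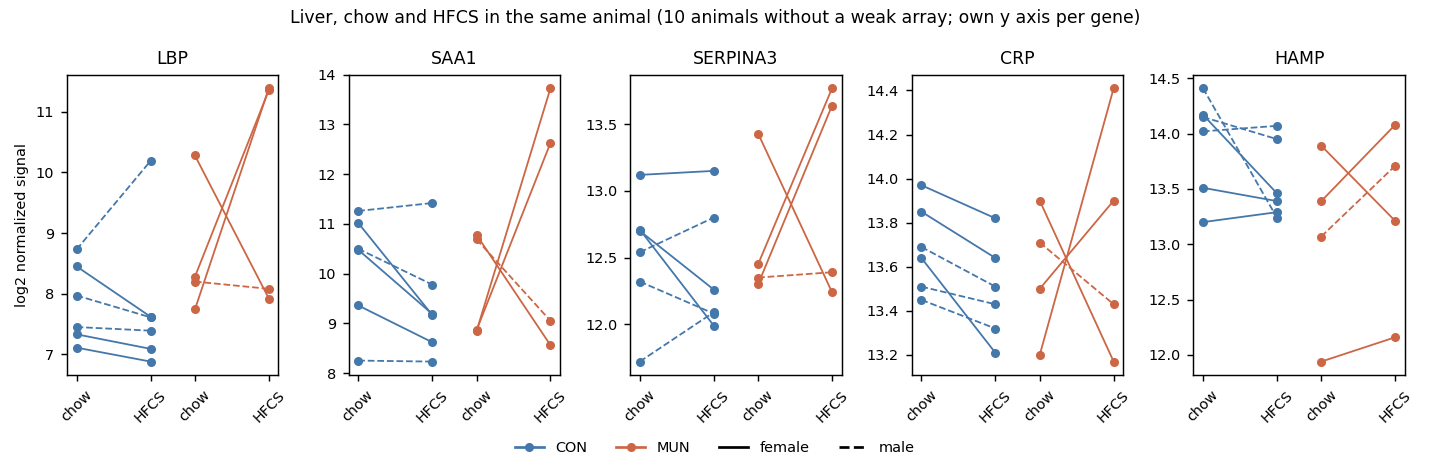
Liver log2 signal of LBP, SAA1, SERPINA3, CRP and HAMP on chow and on HFCS, each line 1 of the 10 animals without a weak array (own vertical axis per panel), CON blue and MUN orange, females solid and males dashed. LBP and SAA1 climbed by 3.08 to 4.89 in MUN replicates 1 and 2 and dropped by more than 2 in MUN replicate 3, and CRP was lower on HFCS in all 6 CON animals.

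ORM1, which encodes the plasma carrier alpha-1-acid glycoprotein, was among the steadiest members. CON livers ran from 13.51 through 14.11 to 14.27 on chow and from 14.02 through 14.11 to 14.41 on HFCS. MUN livers read 13.82, 14.08, 14.21 and 14.15 on chow in replicates 1, 2, 3 and 5, with 9.62 and 8.38 on the weak arrays, and 14.03, 14.14, 13.76, 13.65 and 14.02 on HFCS in replicates 1, 2, 3, 5 and 6, with 9.47 on the weak array. MUN replicates 3 and 5 were below every CON animal on HFCS. Against CON, ORM1 in MUN stood at −1.66 (SE 0.89, adjusted p = 0.964) on chow with all arrays and was 1.99-fold lower on HFCS, and without the weak arrays the log2 differences were 0.03 (SE 0.10) and −0.19 (SE 0.10, adjusted p = 0.925). The ceiling of the normalized scale leaves little room above these ORM1 values.

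HP, haptoglobin, which binds free haemoglobin, was the member whose weak chow arrays were high. CON livers ran from 12.28 through 12.67 to 12.92 on chow and from 12.43 through 12.74 to 13.21 on HFCS. MUN livers on chow read 13.16, 12.66, 13.23 and 12.41 in replicates 1, 2, 3 and 5, and 13.79 and 13.58 on the weak arrays, while on HFCS they read 13.0, 13.12, 13.01, 12.37 and 13.29 in replicates 1, 2, 3, 5 and 6, and 9.01 on the weak array. Replicates 1 and 3 were just above the CON range on chow. MUN minus CON came to 0.48 (SE 0.49) on chow and −0.47 (SE 0.49) on HFCS with all arrays, and 0.20 (SE 0.19) and 0.19 without the weak ones. In MUN the change from chow to HFCS was −0.84 (SE 0.49, adjusted p = 0.592) with all arrays, where weak replicate 4 dropped by 4.78, and 0.09 without the weak ones.

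The fibrinogen chains alpha, beta and gamma, encoded by FGA, FGB and FGG, assemble into the clotting precursor. FGA in CON livers ran from 13.43 through 13.75 to 14.02 on chow and from 13.37 through 13.82 to 14.06 on HFCS. MUN livers read 13.14, 14.03, 13.97 and 13.74 on chow in replicates 1, 2, 3 and 5, and 13.61, 13.85, 13.82, 13.62 and 13.71 on HFCS in replicates 1, 2, 3, 5 and 6, with 7.13, 7.81 and 7.07 on the weak arrays. Apart from the weak arrays the FGA groups overlapped, and the MUN minus CON difference on chow was −2.10 (SE 1.18, adjusted p = 0.964) with all arrays and −0.03 (SE 0.14) without the weak ones, and on HFCS −1.18 (SE 1.18) and −0.05. The next FGA probe by brightness gave −1.67 and 0.06 on chow. FGB in CON livers ran from 12.1 through 12.39 to 13.05 on chow and from 12.14 through 12.32 to 12.79 on HFCS, and MUN livers read 12.8, 12.19, 13.12 and 12.42 on chow and 13.19, 12.46, 12.55, 12.5 and 12.77 on HFCS in the same order of replicates. The weak arrays read 6.82 and 13.5 on chow and 9.28 on HFCS, so that for FGB weak replicate 6 was the highest of all MUN chow values and weak replicate 4 the lowest. FGB differed between MUN and CON by −0.66 (SE 0.80) on chow and −0.27 (SE 0.80) on HFCS with all arrays, and by 0.16 (SE 0.19) and 0.30 (SE 0.18, adjusted p = 0.931) without the weak ones. FGG in CON livers ran from 13.37 through 13.68 to 13.91 on chow and from 13.43 through 13.67 to 13.82 on HFCS, and MUN livers read 13.78, 13.4, 13.86 and 13.56 on chow and 13.91, 13.75, 13.72, 13.58 and 13.84 on HFCS. On the weak arrays FGG was 9.72 and 13.99 on chow and 9.49 on HFCS, and its MUN minus CON differences were −0.62 (SE 0.67) and −0.60 (SE 0.67) with all arrays and −0.02 (SE 0.11) and 0.11 without the weak ones.

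Set side by side, the direction of the 10 differences depended on the 3 weak arrays. On chow 8 of the 10 genes were lower in MUN with all arrays, with a median difference of −0.99 and a range of −2.77 to 0.74. Without the weak arrays 4 of 10 were lower, with a median of 0.07 and a range of −0.76 to 0.86. Over all genes the median was 0.04 with all arrays, and 37.7% of genes were lower in MUN, against 47.4% without the weak arrays. On HFCS 8 of the 10 were lower with all arrays (median −0.76, range −1.34 to 1.18) and 3 of 10 without the weak array (median 0.08, range −0.26 to 1.75), while 46.7% and 50.3% of all genes were lower. SERPINA3, ORM1, SAA4 and FGB changed sign on chow between the sets of arrays, and HAMP was lower and LBP higher in both.

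**Figure D4:**
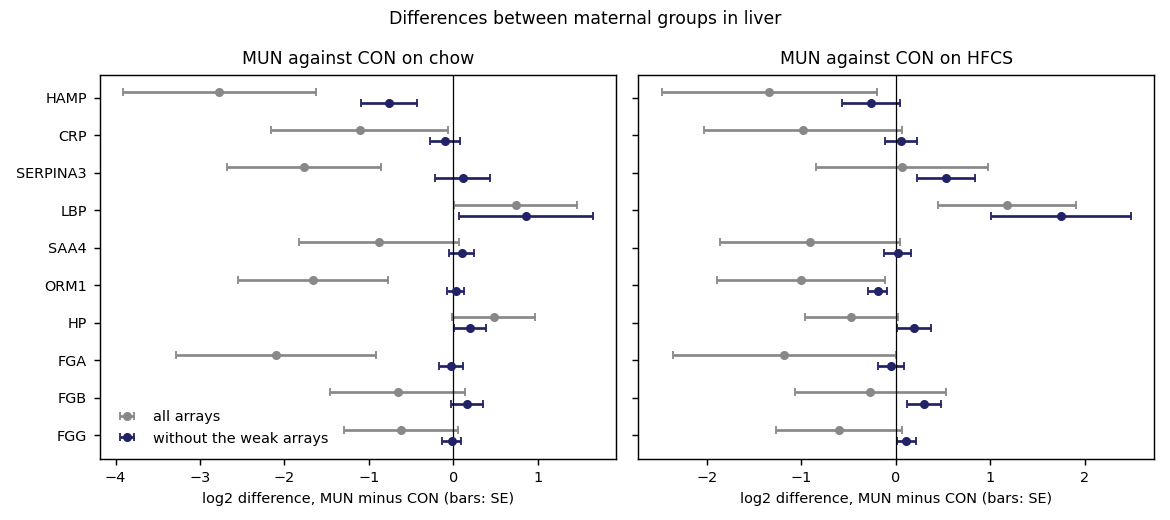
MUN minus CON log2 difference with its SE for each acute phase gene in liver, on chow and on HFCS, from all 24 arrays (grey) and from the 21 without the weak arrays (navy). On chow the grey points reach −2.77 for HAMP and the navy points lie between −0.76 and 0.86, with LBP the highest, and the navy LBP point on HFCS is at 1.75.

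From chow to HFCS the CON livers, none of which had a weak array, showed 4 genes higher and 6 lower, with a median of −0.04 and a range of −0.34 (HAMP) to 0.14 (ORM1). In MUN livers 7 were higher and 3 lower with all arrays, between −0.84 for HP and 1.71 for SERPINA3 with a median of 0.36. Leaving these arrays out, 8 were higher and 2 lower, between −0.11 for ORM1 and 0.85 for LBP with a median of 0.08. The share of all genes lower on HFCS in MUN is given below with the Kupffer cell markers. That share in CON is not given here, and the counts are descriptions only. The difference of the responses, MUN minus CON, had a median of 0.42 over the 10 genes with all arrays and 0.13 without the weak ones, and it ranged from −0.22 to 0.90 in the latter.

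All 3 weak liver arrays came from males, and the sexes were therefore compared in both sets of arrays, in a fit with a random effect for each animal. With all arrays SERPINA3 was 1.57 higher in females (SE 0.60, adjusted p = 0.635 by limma) and ORM1 1.32 higher (SE 0.62, adjusted p = 0.635), and no member passed the test. From the 21 other arrays SERPINA3 was 0.47 higher (SE 0.24, adjusted p = 0.56), ORM1 0.09 higher and SAA4 0.24 higher (SE 0.10, adjusted p = 0.451). HAMP turned from 1.19 higher in females to 0.34 lower. The fit called 3 of all genes (0.0345%) with all arrays and 22 (0.256%) without the weak ones, and 662 (7.62%) and 813 (9.48%) were under an unadjusted p of 0.05.

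The spread within groups was graded over the members. Over the 21 well-correlated liver arrays the SD within groups was 1.35 for LBP, 0.557 for HAMP and 0.552 for SERPINA3, against a median of 0.159 over all genes. LBP stood at the 99.9th percentile of all genes, and HAMP and SERPINA3 at 98.2 and 98.1. FGB (0.324), HP (0.317), CRP (0.299), SAA4 (0.254) and FGA (0.237) followed, from the 91.5th percentile for FGB to the 80.6th for FGA. FGG (0.176) and ORM1 (0.164) were close to the typical gene, with the ceiling of the scale near the ORM1 values.

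Deviations from the group means were set against each other over the same 21 arrays, which share animals and the normalization, so that the correlations are descriptions with no test. SERPINA3 moved with SAA4 (r = 0.85), CRP (0.76) and LBP (0.72), HP with FGG (0.74), and FGB with FGG (0.70). LBP moved with SAA1 (0.79). The r of HAMP with the other members ran from −0.37 with FGA and −0.24 with ORM1 through −0.02 with SERPINA3 and −0.00 with CRP to 0.30 with FGB. The genes most like HAMP were SOWAHC (0.79), CD1A (0.76) and USF2 (0.76), whose gene lies beside HAMP in the human genome. Those most like CRP were IFITM2 (0.83), PSME2 (0.79) and PRKCD (0.77). Those most like SERPINA3 were SAA4 (0.85), ANXA5 (0.82) and FAM89A (0.79), and those most like FGB were CSF3 (0.88), DDX21 (0.75) and GNPDA1 (0.75). For LBP, added after values were seen, they were SELENOM (0.84), DCN (0.79) and SAA1 (0.79). With the weak arrays in, the leading genes were TFR2 for HAMP (0.98), PTBP1 for CRP (0.99), RPL3 for SERPINA3 (0.97) and RPS14 for FGB (0.98), while SAA1 led for LBP (0.79).

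Other genes of the response were read from fixed lists, without the weak arrays unless stated, and no gene of any list was called. For each list the 3 genes of smallest p between the maternal groups are named, first for chow and then for HFCS. Of 27 other positive acute phase genes 21 were kept in liver. On chow 8 of them were higher and 13 lower in MUN (median −0.03), with 1 under the unadjusted limit, and with all arrays 3 were higher and 18 lower. IL1RN, the interleukin 1 receptor antagonist, stood 0.91 lower (SE 0.34, adjusted p = 1), NNMT at −0.39 and plasminogen, PLG, at 0.15, and with all arrays they stood at −0.72, 0.02 and −1.65. On HFCS 13 were higher and 8 lower (median 0.12), with 1 under the limit, and with all arrays 8 and 13. LCN2, an iron-siderophore binding protein, stood 0.80 higher (SE 0.24, adjusted p = 0.702), VNN1 at 0.41 and IL1RN at 0.59, and with all arrays they stood at 0.53, 1.13 and 0.40. In CON IL1RN was 1.14 lower on HFCS than on chow (SE 0.30, adjusted p = 1), and 1.04 lower with all arrays.

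All 10 negative acute phase genes were kept. On chow 6 were higher and 4 lower in MUN (median 0.01), or 5 and 5 with all arrays, and HRG at −0.16, ALB at 0.12 and ITIH2 at −0.14 had the smallest p. On HFCS 4 were higher and 6 lower (median −0.04), or 1 and 9 with all arrays. ITIH2, a hyaluronan-binding inhibitor heavy chain, stood at −0.40 (SE 0.14, adjusted p = 0.804), HRG, histidine-rich glycoprotein, at −0.24 (SE 0.08) and AHSG, fetuin-A, at −0.54 (SE 0.32). With all arrays these were −1.17, −1.01 and −0.69.

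In the list of 24 genes of interleukin 6 and interleukin 1 signalling 14 were kept. On chow 10 of them were lower in MUN, with 1 higher and 3 lower under the unadjusted limit, against 8 lower and 0 under the limit with all arrays. Of all genes 3.87% were under that limit without the weak arrays and 3.94% with all arrays. CEBPD and CEBPB, the C/EBP factors that drive acute phase promoters, stood at −0.62 (SE 0.21) and −0.68 (SE 0.25), and the kinase JAK1 at −0.27 (SE 0.11). With all arrays these were −0.11, −0.90 and 0.16. On HFCS 7 were higher and 7 lower, and NFKBIA stood at −0.42, JAK1 at −0.21 and IRAK1 at −0.14.

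For iron handling 11 of 22 listed genes were kept, with 4 higher and 7 lower on chow, and with all arrays 6 higher and 6 lower of 12. TFRC, the transferrin receptor, stood at 0.36 (SE 0.17, adjusted p = 1), ID1, a BMP target, at −0.29 and ACO1, an iron regulatory protein, at −0.18. With all arrays these were 0.60, −0.01 and −1.31. On HFCS ACVR2A stood at −0.24, TFRC at 0.31 and BMPR2 at −0.26. Receptors and partners of the acute phase proteins had 10 of 18 kept, with 2 higher and 8 lower in MUN on chow (median −0.24), or 4 and 6 with all arrays. The shares of all genes that were lower in MUN are given above. This list shares CD163, C1QA and C1QB with the Kupffer cell markers below, so that the counts of both lists are not separate. HMOX1, the haem oxygenase, stood at −0.66 (SE 0.18), F13B, the carrier subunit of clotting factor XIII, at 0.62 (SE 0.18) and TLR2, a sensor of bacterial lipoproteins, at −0.40 (SE 0.13). With all arrays these were −0.52, 0.74 and −0.32. On HFCS F2, prothrombin, stood at 0.44, F13B at 0.30 and CD14 at −0.23.

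Markers of Kupffer cells, the liver macrophages, stood lower in MUN on chow, although none was called. Of 10 listed, 9 were kept (CD5L was not), and all 9 were lower once the weak arrays were left out, 6 of them under the unadjusted limit, with a median of −0.62, beside 3.87% of all genes under that limit and 47.4% lower. CSF1R was 0.79 lower (SE 0.25, adjusted p = 1), MARCO 0.64 lower and CD163 0.62 lower, and with all arrays they were 1.48, 0.33 and 0.17 lower. Over the list with all arrays 8 of 9 were lower, with a median of −0.21. The mean of the list without weak arrays ran from 8.21 through 8.68 to 9.24 in CON on chow and from 7.93 through 8.19 to 8.51 in MUN on chow, and the groups overlapped. On HFCS it ran from 8.4 through 8.77 to 8.93 in CON and from 8.02 through 8.72 to 9.3 in MUN, and in MUN all 9 markers stood higher on HFCS than on chow, 3 under the unadjusted limit, beside 3.33% of all genes under it and 51.4% lower. With all arrays 6 of the 9 stood higher, 1 under the limit, beside 9.78% and 51.7%. In tissue RNA fewer cells of a type and less RNA per cell cannot be told apart, and the part of these markers in the values of HAMP and the other members was not tested. Blood cell markers, 6 of 8 kept (PTPRC and S100A8 were not), had means of 8.42 through 9.0 to 9.54 in CON on chow and 9.27 through 9.6 to 9.87 in CON on HFCS. In the comparison of HFCS with chow in CON, the haemoglobin chains HBB, HBA1 and HBA2 had the smallest p of this list. They stood 1.35, 1.31 and 1.30 higher on HFCS (adjusted p = 1 for each). In MUN the smallest p belonged to S100A9, HBB and HBA1, which stood 0.87, 0.51 and 0.53 higher on HFCS. The part of the blood cell markers in the CON changes, CRP included, was not tested.

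Across tissues the 10 genes read as liver transcripts. Most of them passed the detection filter only through liver, so that a higher level there was fixed by the filter and the levels are given as a description with no test, from all 72 arrays normalized together. Where a probe was detected on fewer than 7 of the 24 arrays of a tissue, values under the lowest signal of detected probes on an array were raised to it, and the fold is a bound. In adipose tissue CRP, ORM1, HP, LBP and FGG were detected on 0 of 24 arrays. CRP was at least 73.4-fold, ORM1 at least 97.7-fold, HP at least 58.9-fold, FGG at least 91.8-fold and LBP at least 2.71-fold higher in liver than in adipose tissue. Without the weak arrays these bounds were 122, 170, 72.5, 133.1 and 3.12. SERPINA3, FGA and FGB were detected on 6, 4 and 2 adipose arrays, with bounds of 36.6-fold, 68.1-fold and 41.5-fold, or 63.9, 138 and 61.4 without the weak arrays. In muscle LBP was detected on 0 of 24 arrays, with a bound of at least 2.36-fold, or 2.9-fold without the weak arrays. CRP and ORM1 were detected there on 1 array each and FGA, FGB and FGG on 2 each, with bounds of 57.9-fold, 74.1-fold, 53.3-fold, 34.5-fold and 70.4-fold. HAMP and SERPINA3 on 5 muscle arrays and HP on 4 had bounds of 43.2-fold, 29.8-fold and 43.1-fold. HAMP was measured on 18 adipose arrays and its level was 5.73 log2 units higher in liver, or 6.70 without the weak arrays. SAA4 was detected on 24 adipose and 21 muscle arrays and was 6.06 and 5.74 log2 units higher in liver.

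**Figure D5:**
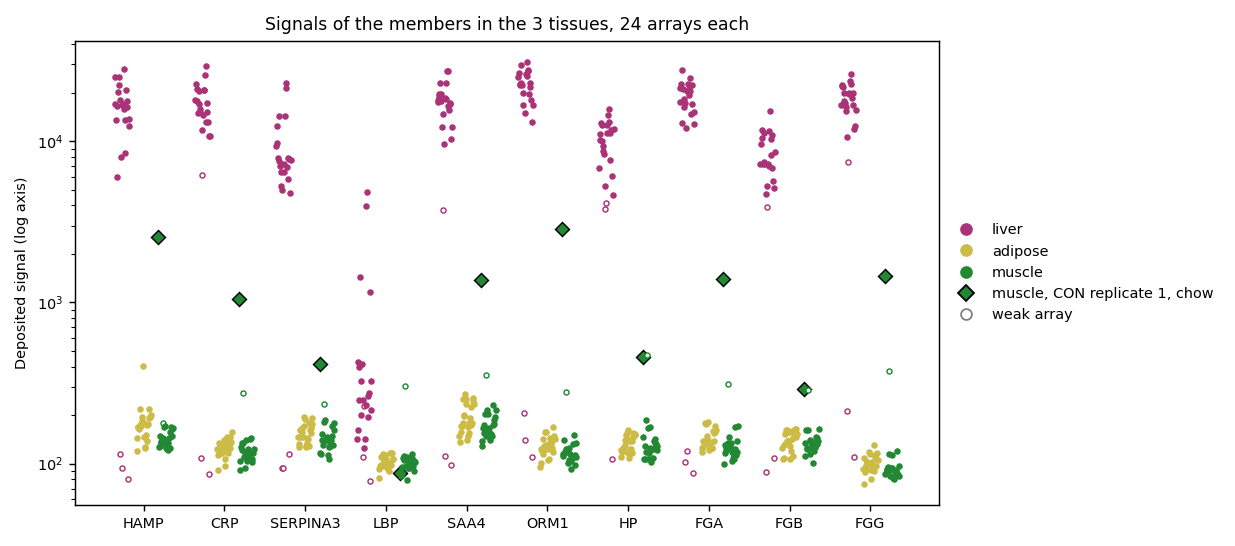
Deposited signals (log axis) of the 10 acute phase genes on the 24 arrays of each tissue. Open circles are the weak arrays and the diamond is muscle of CON replicate 1 on chow, where 9 of the 10 genes, HAMP at 2555.2 and ORM1 at 2851.0 among them, exceeded the 22 other well-correlated muscle arrays. HP was higher still, at 475.3, on the weak muscle array.

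In muscle the strongest signals came from 1 biopsy. Another weak array, CON replicate 5 on chow, detected 3179 probes and had a median correlation of −0.009 with the rest. On CON replicate 1 on chow HAMP read a deposited signal of 2555.2, against 121.7 to 170.7 on the 22 other well-correlated muscle arrays. ORM1 read 2851.0 there against 93.1 to 149.8, FGG 1465.3 against 79.9 to 119.3, FGA 1391.8 against at most 172.0 and SAA4 1373.8 against 128.0 to 230.5. CRP read 1049.3 against 91.7 to 143.3, HP 457.8 against 102.4 to 186.3, SERPINA3 416.5 against 107.2 to 185.4 and FGB 289.5 against 100.2 to 164.0. LBP was not detected there, at 87.4, inside the range of the other arrays. The hepatocyte markers kept in muscle were 2 of 8, ALB and APOC3, and they read log2 signals of 14.32 and 11.36 on the same array. Their mean of 12.84 there stood against at most 7.39 in the other 3 muscle groups. In the same group the weak array of CON replicate 5 read 10.78 for ALB and 10.11 for APOC3. The part of liver transcripts in the muscle values of CON replicate 1 was not tested further.

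SAA4 was the only member kept in muscle. CON on chow ran from 7.15 through 7.37 to 10.97, the highest being replicate 1. The weak array of replicate 5 read 9.7, and the other groups lay between 7.3 and 7.64. Its MUN minus CON difference on chow was −0.84 (SE 0.45, adjusted p = 0.548 by limma), −0.58 without the weak array and −0.32 without CON replicate 1. Without both it was 0.18 (SE 0.09, adjusted p = 0.71). The change from chow to HFCS for SAA4 in CON was −0.86 (SE 0.45, adjusted p = 0.394) and 0.16 without both arrays. That comparison called 6 of 8052 genes (0.0745%), or 42 of 8007 (0.525%) without the weak array, and the other muscle comparisons called 0 (0%).

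In omental adipose tissue HAMP, SAA4 and SERPINA3 were kept and stood near the detection limit. HAMP ran from 7.33 through 7.44 to 7.68 in CON on chow, from 7.12 through 7.35 to 7.75 in CON on HFCS, from 7.3 through 7.46 to 8.57 in MUN on chow and from 7.14 through 7.38 to 7.56 in MUN on HFCS. The value of 8.57 belonged to MUN replicate 5, with a deposited signal of 404.5, and all other HAMP values overlapped. SAA4 ran from 7.44 through 7.54 to 7.91 in CON and from 7.39 through 7.63 to 8.07 in MUN on chow, and lay between 7.31 and 7.75 on HFCS, and SERPINA3 stayed between 7.12 and 7.44 over all groups. The MUN minus CON differences on chow were 0.16 for HAMP, 0.08 for SAA4 and 0.09 for SERPINA3. SERPINA3 in MUN was 0.13 lower on HFCS than on chow (SE 0.06, adjusted p = 0.999 by limma). The adipose fits called 2 of 9277 genes (0.0216%) for MUN against CON on HFCS and 0 (0%) in the other comparisons. Hepatocyte markers kept in fat were 3 of 8, and their mean per array lay between 7.08 and 7.45.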

How the data were processed

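RNA from 72 biopsies (Trizol) was hybridised by the authors to Illumina HumanHT-12 v4 arrays and read out in GenomeStudio, with later analysis in Partek. The versions are not given in the sources used here. The deposited table holds a signal intensity per probe, between 62.1 and 36505.6, and a detection score, without background correction or normalization by the authors. A second deposited table of 36088 probes holds quantile normalized intensity values (column medians 121.04 to 121.05), used as an alternative. Of its probes 23458 had 1 gene symbol, 7 had several and 12623 had none listed.

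In each tissue of 24 arrays, probes entered with a detection score over 0.95 on 6 or more of them, and were put on the log2 scale and quantile normalized. The kept probe with the highest mean stood for a gene. Group means were fitted with limma 3.58.1 in R 4.3.3 with empirical Bayes moderation and Benjamini-Hochberg adjustment over all genes of the tissue, sexes combined and without an animal term, and a call needed an adjusted p under 0.05 and a fold of at least 1.2. Arrays with a median correlation under 0.9 with their tissue were called weak. The number of arrays limits the precision. The p-values of the group-mean fits rest on the spread between arrays within groups. Arrays of the same animal on both diets were treated as independent there.

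Replicate numbers mark the same animal on both diets, so the pairing comes from the animals. Same-numbered arrays deviated together with a median correlation of 0.368 in liver (11 of 12 pairs above 0.1), 0.203 in adipose tissue (9 of 12) and 0.176 in muscle (7 of 12). The alternatives were the animal as a block, normexp background correction, the authors' normalized values, no detection filter, array weights, sex as a term, ordinary least squares without moderation, each replicate left out, and leaving out the weak arrays. Median scaling and some combinations were added after seeing the data. The fitting code was tested on simulated data. The 10 genes, the other lists and the rule for the genes named (up to 3 with the smallest p per list and comparison in the fit without the weak arrays, and the 3 most correlated genes for HAMP, CRP, SERPINA3 and FGB) were chosen with earlier results of these data known. Sequences are not shown.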

Additional observations from a re-analysis of the deposited data

Results flagged for a closer look

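Among groups of 4 to 6 arrays, 76 were examined for a single array far from the others, and 18 had one. About 1 in 20 such groups is marked by chance. The array of MUN replicate 4 on HFCS in liver accounted for 8 of them, with log2 signals of 7.06 for CRP, 7.07 for FGA, 9.28 for FGB, 9.49 for FGG, 6.86 for HAMP, 9.01 for HP, 9.47 for ORM1 and 7.96 for SAA4. The same animal on chow stood apart for CRP at 7.27, FGB at 6.82 and FGG at 9.72, and MUN replicate 6 on chow for SAA4 at 7.61. These are the weak arrays.

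Among the other liver arrays LBP stood apart in CON replicate 6 on HFCS at 10.19, ORM1 and SAA4 in CON replicate 5 on chow at 13.51 and 13.04, and SERPINA3 in MUN replicate 3 on chow at 13.89 (normalized without the weak arrays). In adipose tissue HAMP stood apart in MUN replicate 5 on chow at 8.57, and SAA4 in CON replicate 4 on chow at 7.91.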

How the results depend on the processing

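No alternative called any of the 10 genes, and the animal as a block changed no member's call. Each replicate was left out in turn, from all arrays and from the set without the weak ones, and the ranges pool both kinds of fit. MUN minus CON in liver on chow ran over −1.37 to 0.02 for CRP, −2.30 to 0.23 for SERPINA3 and −2.02 to 0.09 for ORM1. It ran over −1.16 to 0.18 for SAA4, −2.57 to 0.15 for FGA, −1.01 to 0.34 for FGB and −0.81 to 0.06 for FGG. For all of these but FGB the upper end matched the fits without the weak arrays, where SERPINA3 ran over −0.15 to 0.23. The pooled ranges thus do not tell whether leaving out 1 animal alone changed a sign. On HFCS the pooled ranges were −1.70 to 0.02 for HAMP and −0.19 to 0.70 for SERPINA3. The LBP change on HFCS, pooled likewise, ranged over −0.38 to 0.12 in CON and −0.24 to 1.85 in MUN. Without the weak arrays 4 genes changed sign on chow. SERPINA3 was 0.11, 0.09 with the animal as a block, 0.11 by ordinary least squares and 0.04 by median scaling. ORM1 was 0.03, 0.04 with the block, 0.01 with a sex term, 0.03 by least squares and 0.04 by median scaling. SAA4 was 0.10, 0.08 with the block, 0.04 with a sex term, 0.10 by least squares and 0.07 by median scaling, and 0.05 with array weights. FGB was 0.16, 0.17 with the block, 0.11 with a sex term, 0.16 by least squares and 0.12 by median scaling, and 0.11 with array weights. With all arrays, median scaling gave −0.08 for HP on chow and −0.48 for SERPINA3 on HFCS. The cause was not tested.

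Counts over all genes moved as follows. In liver, HFCS in CON called 0, 3 with the animal as a block without the weak arrays, 1 with array weights, 1 with a sex term, 3 with a sex term without the weak arrays and 0 to 2 with 1 replicate left out. The change averaged over CON and MUN called 0, 3 with the block without the weak arrays, 1 with a sex term without them and 0 to 1 with 1 left out, MUN against CON on chow 0 to 2, and sex 3 or 22 without the weak arrays. In adipose tissue, MUN against CON on HFCS called 2, 0 with normexp, 4 with a sex term, 5 by median scaling and 0 to 3 with 1 left out. HFCS in CON called 0, 1 with the block, 2 by median scaling and 0 to 1 with 1 left out, and HFCS in MUN 0, 1 with the block and 1 with array weights. The averaged change called 1, 0 by least squares, 2 by median scaling and 0 to 1 with 1 left out. In muscle, HFCS in CON called 6, 42 without the weak array, 102 with the block without it, 11 with array weights, 41 with a sex term without it, 21 by least squares without it, 735 by median scaling, 523 by median scaling without it, and 0 to 126 with 1 left out. HFCS in MUN called 0 to 1 with 1 left out. The difference of the responses called 0, 14 and 86 by median scaling with all arrays and without the weak one, and 0 to 5 with 1 left out. The averaged change called 0, 3 with the block without the weak array, 3 with array weights, 2 with a sex term without it, 1 by median scaling without it and 0 to 1 with 1 left out.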
